A study of Mus musculus with 6 samples.

Results

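The genes of DNA replication and its licensing were compared between sorted lung cells of Bmi1 mutant and Bmi1 wild-type mice. The members were 44 genes, chosen by name from what their proteins do, with earlier results of these data known. Their proteins load and start the replicative helicase, copy DNA at the fork or supply nucleotides. A few assemble chromatin behind the fork or control entry into S phase. A probe set of the Affymetrix Mouse Genome 430 2.0 array (a group of short probes for 1 transcript) was taken as a member's when its only gene symbol was that name. This gave 43 measured members among 18193 genes, and Chaf1a was not analysed here. A gene with several probe sets was represented by the one whose log2 values averaged highest across the 6 arrays.

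The series holds 6 arrays of freshly sorted cells from the lungs of 4-month-old female mice on a mixed Bl6/129 background. Of these, 3 arrays came from mice labelled Bmi1 mutant, whose genotype is given as Bmi1 null, and 3 from Bmi1 wild-type mice. The labels do not describe the mutant allele, and they do not say whether a biological replicate is 1 mouse or several pooled. The p-values therefore cover only the variation among the arrays at hand. Lungs of both genotypes were dissociated with enzymes, erythrocytes were removed by lysis, and a sorter kept live cells that stained for neither CD31 (an endothelial surface protein) nor CD45 (a hematopoietic one). Amplified cDNA was hybridised, and the deposited signals are linear intensities scaled to a common mean on every array. Levels are therefore relative to all other RNA on the array. In bulk samples such as these, fewer cells of a type and less RNA per cell cannot be told apart.

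Before S phase, the origin recognition complex, Cdc6 and Cdt1 load the ring of Mcm2 to Mcm7 onto DNA, which licenses an origin to fire later. Cdc45 and the GINS complex then turn that ring into an active helicase. Polymerase alpha with primase starts each strand, polymerases delta and epsilon extend it on the sliding clamp Pcna, and Fen1 and Lig1 join the fragments of the lagging strand. Transcription factors of the E2F family drive many of these genes as cells leave G1, and most cells of the adult lung at rest do not divide. Bmi1 is a subunit of Polycomb repressive complex 1 and keeps the Cdkn2a locus, a source of cell cycle inhibitors, silent in many tissues. The comparison asks how the replication genes differ in lung cells when Bmi1 is mutated.

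Replication genes have a promoter feature that the choice of members did not use, the E2F recognition sequence. It was searched as TTTCCCGC, TTTCGCGC, TTTGCCGC or TTTGGCGC on either strand, in windows from 250 bases before to 50 bases after the RefSeq starts of build GRCm38.p6. Of the 34 measured members with such a window, 13 held a match (38.2%), against 2.61% of the 27025 genes with a window. The 13 were Cdc6, Cdt1, Lig1, Mcm3, Mcm5, Mcm6, Mcm7, Orc1, Pola1, Pold1, Pole2, Rfc3 and Uhrf1. A CCAAT box (CCAAT on either strand), searched in the same windows, was held by 19 of the 34 members (55.9%) and by 41.1% of all genes. The matches below were picked from the members described in most detail and from the Mcm helicase genes, each in 30 bases on the strand of the gene with the match in capitals. Mcm3, Mcm5 and Mcm6 hold further matches that are not shown. Some matches share bases with a match on the other strand, as those shown for Mcm5 and Mcm6 do.

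Cdt1, chr8:122568035-122568064, plus strand: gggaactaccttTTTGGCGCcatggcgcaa
Mcm7, chr5:138172030-138172059, minus strand: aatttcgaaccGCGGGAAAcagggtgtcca
Mcm7, chr5:138171849-138171878, minus strand: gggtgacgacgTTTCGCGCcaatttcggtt
Mcm3, chr1:20820275-20820304, minus strand: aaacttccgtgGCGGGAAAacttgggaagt
Mcm5, chr8:75109345-75109374, plus strand: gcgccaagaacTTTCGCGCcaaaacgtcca
Mcm6, chr1:128359797-128359826, minus strand: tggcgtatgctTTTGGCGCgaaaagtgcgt
Pola1, chrX:93632275-93632304, minus strand: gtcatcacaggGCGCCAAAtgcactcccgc
Lig1, chr7:13278841-13278870, plus strand: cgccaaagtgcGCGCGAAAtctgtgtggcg
Uhrf1, chr17:56304117-56304146, plus strand: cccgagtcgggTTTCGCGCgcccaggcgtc

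The matches lie at different places in the windows. The match in Pola1 begins 138 bases before the annotated start, those in Mcm7 begin 165 bases before it and at base 17 of the transcript, and that in Cdt1 begins at base 33 of the transcript. A match is a string of letters and not a measured binding site. The 13 members with a match had a median log2 difference between the genotypes of -0.61, with 12 of them below 0, and the 21 members with a window but no match had a median of -0.35, with 17 below 0. Both groups of genes therefore lay mostly on the same side.

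Replication genes were lower in the Bmi1 mutant arrays as a rule, by a modest amount, and the licensing factor Cdt1 passed the test by itself. Of the 43 measured members, 36 had a log2 difference (mutant minus wild type) below 0, or 83.7%, against 49.3% of all genes. Their median log2 difference was -0.43, and that of all 18193 genes was 0.01. In 20 members every mutant array was below every wild-type array, and in 0 members the reverse held, while 10.0% of all genes did not overlap in the lower direction and 10.4% in the higher. Those 20 are 46.5% of the members. The members range from -1.57 for Rrm2 to 0.40 for Orc1.

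Each gene was tested with limma on log2(signal + 16), and a gene was called at a Benjamini-Hochberg adjusted p under 0.05 over all 18193 genes. By that rule 1 member was called, Cdt1, and it was lower, where 0.511% of all genes were called lower, 0.412% higher and 0.923% in either direction. At an unadjusted limma p under 0.05, 18 of the 43 members were lower and 0 higher, against 7.04% of all genes that were lower and 7.51% that were higher. The count of members below 0 lay between 35 and 37 of 43 in each alternative that kept all 43 members. The call for Cdt1 was lost without any 1 of the 6 arrays, where the adjusted p lay between 0.0528 (wild-type replicate 1 left out) and 0.132 (wild-type replicate 2 left out) and the log2 difference between -1.57 and -1.30. It was also lost with an offset of 1 (adjusted p = 0.0797), with the mean of a gene's probe sets (log2 difference -0.83, adjusted p = 0.0910) and with a fibroblast marker covariate (-1.08, adjusted p = 0.440). That covariate was itself higher on every mutant array than on any wild-type array, so the fit cannot divide it from genotype.

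**Figure D1:**
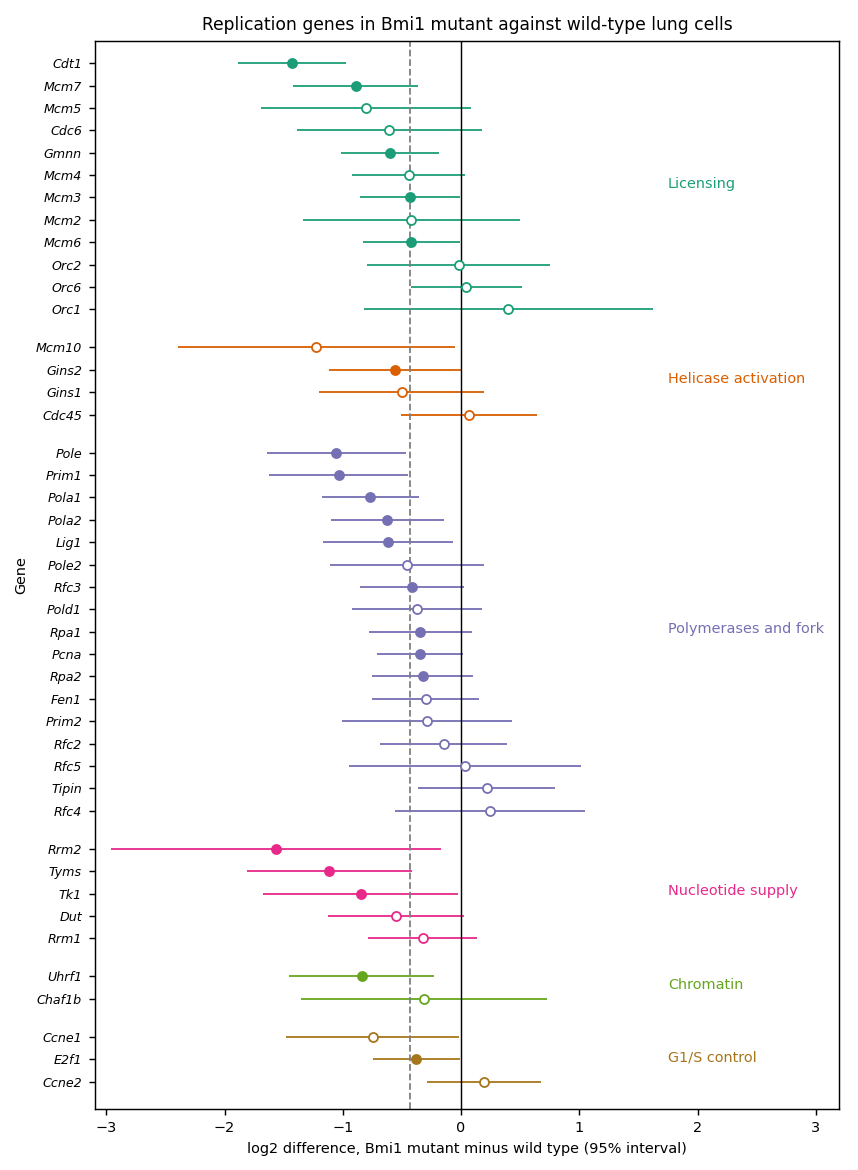
Log2 difference of each of the 43 measured replication genes, Bmi1 mutant minus wild type, with limma's 95% interval, grouped by role. Filled circles mark genes whose mutant and wild-type arrays do not overlap, open circles the others, and the dashed line the median of the members, -0.43. Most circles sit left of 0, Cdt1 with an interval that ends at -0.97.

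Among the licensing factors the lowest reading relative to wild type was that of Cdt1, the loader that brings the Mcm ring to origins. Its signal was 801, 919.7 and 811 in the mutant arrays, against 1886, 2329.5 and 2766 in the wild-type arrays. All 3 mutant arrays lay close together and at less than every wild-type value. The means were 844 ± 65.7 in mutant and 2327 ± 440.05 in wild type (SD, n = 3 each), so wild type was 2.76 times the mutant, and the log2 difference was -1.43 ± 0.19 (SE, limma adjusted p = 0.0307). Another probe set for Cdt1 read 209, 145 and 159.97 in mutant arrays and 246, 378 and 489.9 in wild-type arrays, a log2 difference of -1.01. That probe set too kept the genotypes apart, with a smaller gap between mutant replicate 1 and wild-type replicate 1. The last Cdt1 probe set was near the bottom of the scale, with a mean signal of 2.07, and overlapped.

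Gmnn encodes geminin, which binds Cdt1 and stops a second round of licensing. It read 379.7, 334 and 436 in mutant arrays, against 591, 531 and 642 in wild-type arrays. The genotypes did not overlap, but the log2 difference of -0.60 ± 0.17 (SE) missed the threshold (limma adjusted p = 0.186). The loading ATPase gene Cdc6, with a mean of 195 ± 77.6 in mutant and 299 ± 90.4 in wild type (SD, n = 3 each), overlapped and differed by -0.61. Cdt1 and its inhibitor therefore lay on the same side of 0, by unequal amounts.

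All 6 genes of the Mcm2 to Mcm7 ring were below 0, with log2 differences between -0.89 and -0.42 and a median of -0.44. Mcm7 had the widest gap among them. Its signal was 1516, 1097 and 1672 in mutant arrays and 2205, 2703.5 and 3024 in wild-type arrays. The groups were apart, and the log2 difference was -0.89 ± 0.22 (SE, limma adjusted p = 0.137). Mcm3 (-0.43) and Mcm6 (-0.42) also did not overlap, with mutant values of 741 to 903 against 1030.1 to 1323 for Mcm3 and 2713 to 2887 against 3193 to 4292 for Mcm6. Mcm2 (-0.42), Mcm4 (-0.44) and Mcm5 (-0.81) overlapped between the genotypes. In Mcm5 the overlap came from wild-type replicate 1, which read 1046, below the 1252.5 of mutant replicate 1 and the 1126 of mutant replicate 3.

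The origin recognition complex, the landing platform for licensing, had 1 of its 3 measured members (Orc1, Orc2 and Orc6) below 0. Orc2 read 705, 361 and 824 in mutant arrays and 678, 673 and 483 in wild-type arrays, a log2 difference of -0.02 (95% interval -0.80 to 0.75). Orc6 read 731, 627 and 739.95 in mutant arrays, against 841, 561 and 652 in wild-type arrays, a difference of 0.05 (95% interval -0.43 to 0.52). Both sets of arrays were interleaved. Orc1 differed by 0.40 with a 95% interval of -0.82 to 1.62 and was the highest of the members. The intervals of Orc1 and Orc2 hold the median of the Mcm genes, that of Orc6 ends just short of it, and the difference between the complexes was not tested. Orc3, Orc4 and Orc5, subunits from the list of other pathway genes, were all below 0. Orc3 read 822, 879 and 951 in mutant arrays and 1116, 1125 and 1195 in wild-type arrays, with no overlap (-0.37, limma adjusted p = 0.335), while Orc4 (-0.08) and Orc5 (-0.05) overlapped.

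Of the helicase activators, 3 of 4 were below 0. Mcm10, a scaffold that helps to switch the helicase on, read 60.4, 77.9 and 17.0 in mutant arrays and 76.4, 115 and 233 in wild-type arrays. Its values were spread widely in both genotypes and just overlapped, at 77.9 in mutant replicate 2 and 76.4 in wild-type replicate 1. The log2 difference was -1.22 ± 0.49 (SE, limma adjusted p = 0.328). The GINS subunit genes Gins2 (-0.56, no overlap) and Gins1 (-0.50, overlap) lay below 0, while Cdc45 was at 0.07 with mutant values of 81.1 to 130.1 inside and around the wild-type range of 75.9 to 124.

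At the fork, the polymerase and primase genes Pole, Prim1 and Pola1 were furthest below 0. Pola1, the catalytic subunit of polymerase alpha, read 128, 103 and 138 in mutant arrays, against 210.5, 209 and 241 in wild-type arrays. Its log2 difference was -0.77 ± 0.17 (SE, limma adjusted p = 0.111), and the gap between the groups was wider than the range within either. The partner subunit Pola2 read 95.7, 105 and 120.1 in mutant arrays and 134, 196 and 196 in wild-type arrays (-0.62 ± 0.20, limma adjusted p = 0.229). Its groups were also apart.

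The small primase subunit Prim1, which makes the RNA primers, read 358, 185 and 262 in mutant arrays and 557, 504 and 589.8 in wild-type arrays. Its wild-type mean of 550.4 was 2.05 times the mutant mean of 269 (log2 difference -1.04 ± 0.25, limma adjusted p = 0.126). For Pole, the catalytic subunit of the leading-strand polymerase, the signals were 23.9, 15.8 and 28.2 in mutant arrays and 62.1, 89.3 and 45.0 in wild-type arrays. Pole is dim in both genotypes, near the offset of 16, so its log2 difference of -1.05 ± 0.25 (limma adjusted p = 0.121) understates the ratio of its means. The large primase subunit Prim2 (-0.29), Pold1 (-0.38) and Pole2 (-0.46) overlapped between the genotypes.

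Lig1, the ligase that seals the fragments of the lagging strand, read 896, 519 and 725 in mutant arrays, against 1210.4, 1006 and 1030.3 in wild-type arrays. The log2 difference was -0.62 ± 0.23 (SE, limma adjusted p = 0.290). Every mutant array was below every wild-type array, with mutant replicate 2 lowest. Pcna, the sliding clamp, had one of the narrowest spreads, with 5674, 5231 and 4786 in mutant arrays and 6716, 6511 and 6665 in wild-type arrays. Its groups did not overlap, and the log2 difference was -0.34 (95% interval -0.71 to 0.02, limma adjusted p = 0.367).

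Among the other fork genes, Rpa1 (-0.35) and Rpa2 (-0.32), which coat single-stranded DNA, and the clamp loader subunit Rfc3 (-0.42) did not overlap between the genotypes. The flap endonuclease gene Fen1 (-0.30) and Rfc2 (-0.15) overlapped. Rfc5 read 308, 208 and 473 in mutant arrays and 179.5, 324 and 485 in wild-type arrays, with interleaved values and a log2 difference of 0.03 (95% interval -0.95 to 1.01). Tipin, a partner of Timeless that protects the fork, was at 0.22 and Rfc4 at 0.24. In all, 14 of the 17 fork genes were below 0, 9 did not overlap, and their median was -0.35.

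Nucleotide supply had the lowest median of the 6 role groups, -0.85 over 5 genes, and all 5 were below 0. Rrm2, the regulated subunit of ribonucleotide reductase, read 859, 185 and 928 in mutant arrays and 1314, 1504.5 and 2113 in wild-type arrays. Mutant replicate 2 lay far under the other mutant arrays, which gave a wide error on the log2 difference of -1.57 ± 0.59 (SE, limma adjusted p = 0.295). A second Rrm2 probe set read 340.3, 238 and 241 in mutant arrays and 524, 474 and 649.8 in wild-type arrays (-0.97), and the last differed by -1.24. In neither did mutant replicate 2 stand far from the other mutant arrays, and all 3 probe sets kept the genotypes apart.

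Tyms, which makes thymidylate, read 14.9, 32.3 and 45.8 in mutant arrays and 106, 67.1 and 76.1 in wild-type arrays. These dim signals did not overlap, and the log2 difference was -1.11 ± 0.29 (SE, limma adjusted p = 0.153). The salvage enzyme gene Tk1 read 58.1 to 79.3 in mutant arrays, against 88.0 to 247 in wild-type arrays (-0.85, no overlap). Dut, which removes dUTP, and Rrm1, the constant subunit of ribonucleotide reductase, differed by -0.55 and -0.32 and overlapped.

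Chromatin genes gave few values. Uhrf1, which guides maintenance methylation to newly copied DNA, read 181, 227 and 178 in mutant arrays, against 292, 303 and 527 in wild-type arrays. The arrays did not overlap, wild-type replicate 3 stood above the other wild-type arrays, and the log2 difference was -0.84 ± 0.26 (SE, limma adjusted p = 0.2103). Chaf1b, a histone chaperone subunit, had signals of 8.23 to 34.9 in mutant and 12.9 to 58.0 in wild type, too dim for its difference of -0.32 (95% interval -1.36 to 0.72) to be read.

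The genes of S phase entry were divided. The transcription factor gene E2f1 read 312, 361 and 336 in mutant arrays and 463, 406 and 455 in wild-type arrays. Those groups were apart, with a log2 difference of -0.38 ± 0.16 (SE, limma adjusted p = 0.336). The cyclin E gene Ccne1 was at -0.75 and its paralog Ccne2 at 0.20, both with overlapping arrays. The sign of Ccne1 rests on averaging log2 values. Another probe set had a slightly higher mean linear signal (175.4 against 174.8) and was at 0.15. The interval of Ccne2, from -0.29 to 0.68, covers 0.

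**Figure D2:**
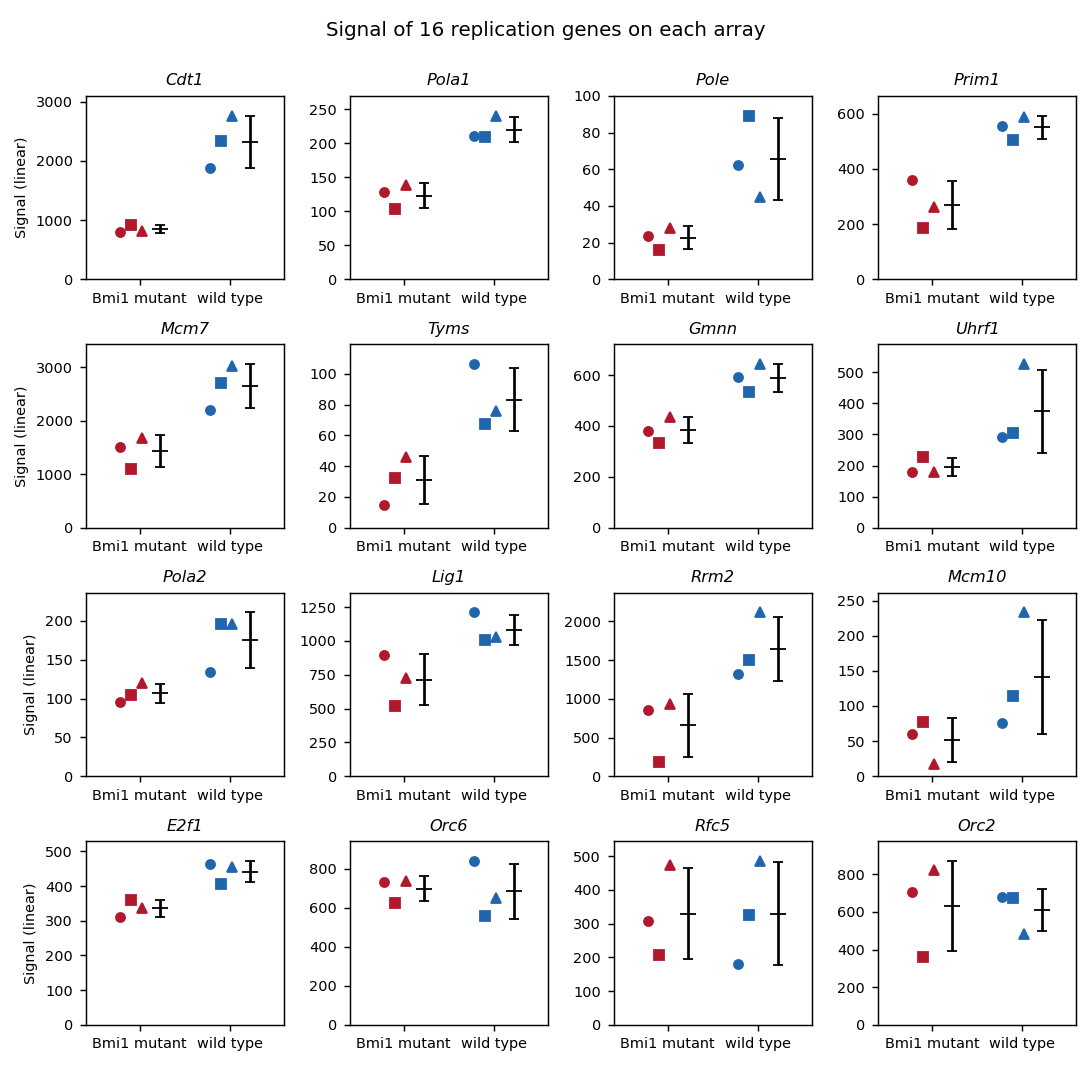
Linear signal of 16 replication genes on each array, Bmi1 mutant in red and wild type in blue, with replicates 1, 2 and 3 as circle, square and triangle and the mean ± SD (n = 3) in black beside them. Panels run from the smallest p to the largest. Cdt1 sits at 801 to 919.7 in mutant and 1886 to 2766 in wild type, Mcm10 just overlaps, and Orc6, Rfc5 and Orc2 are interleaved.

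The mean level of the members kept the genotypes apart. The mean log2 level of all 43 members was 8.66, 8.45 and 8.53 in mutant replicates 1 to 3 and 8.93, 9.03 and 9.15 in wild-type replicates 1 to 3. The highest mutant array was thus below the lowest wild-type array. Within a genotype the order of arrays differed by role group. Among mutant arrays, replicate 3 was lowest for helicase activation (6.44) and highest for nucleotide supply (8.67). Wild-type replicate 3 held the highest of the 6 signals in 19 of the 43 members, and mutant replicate 2 the lowest in 18. These counts were not made over all genes. Without wild-type replicate 3 the median log2 difference of the members was -0.43 and without mutant replicate 2 it was -0.40.

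Probe sets of the same gene mostly had the same sign. Of the 43 members, 33 had more than 1 probe set, which gave 51 further probe sets, of which 42 were below 0. Among the 28 of these with a mean signal of at least 100, 25 were below 0, with a median of -0.61, and 24 had the sign of the probe set that stood for the gene. The 5 probe sets of Mcm3 differed by -0.43, -0.58, -0.64, -1.02 and -1.03. The 4 of Mcm7 differed by -0.89, -0.73, -0.73 and -0.37.

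Some genes depended on the probe set. Rfc4, at 0.24 by a probe set with 629 in mutant replicate 1 and 255 to 291 in the other mutant arrays, differed by -0.74 by its second probe set, which read 151, 167 and 142 in mutant arrays and 204, 291 and 314 in wild-type arrays. Ccne1 was at -0.75 by the probe set used and 0.15 by another of nearly the same brightness, whose signal ran from 51.2 to 299 in mutant and from 26.2 to 284 in wild type. Rfc3, at -0.42 with no overlap by the probe set used, was at 0.02 by a second of similar brightness, which read 156 to 200.1 in mutant arrays and 158 to 198 in wild-type arrays. E2f1 differed by -1.001 by its second probe set, against -0.38 by the first. Mcm10 differed by -0.57 and 0.35 by its dimmer probe sets, and Tyms by 0.05, -0.26 and -0.82 by its dimmer ones. The arrays overlapped in each of those dimmer Mcm10 and Tyms probe sets, but not in the second E2f1 probe set. Probe sets whose names end in x_at or s_at, such as those used for Rrm2, Mcm2, Mcm4, Mcm5, Mcm6, Mcm7 and Rfc4, may also bind related transcripts, and their values are less certain for the named gene.

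A limma fit over all 34945 single-gene probe sets, added after the data were seen, called 2 of the 94 member probe sets lower, where 0.258% of all probe sets were called lower and 0.212% higher. They were the main Cdt1 probe set (adjusted p = 0.0420) and a dim Pola1 probe set (adjusted p = 0.0376). That Pola1 probe set read 1.60, 0.641 and 2.54 in mutant arrays, against 21.9, 30.5 and 28.3 in wild-type arrays. Its signals are near the floor of the scale, where the deposited values have no detection call. The mean over a gene's probe sets, in place of the brightest, called Pola1 and not Cdt1.

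**Figure D3:**
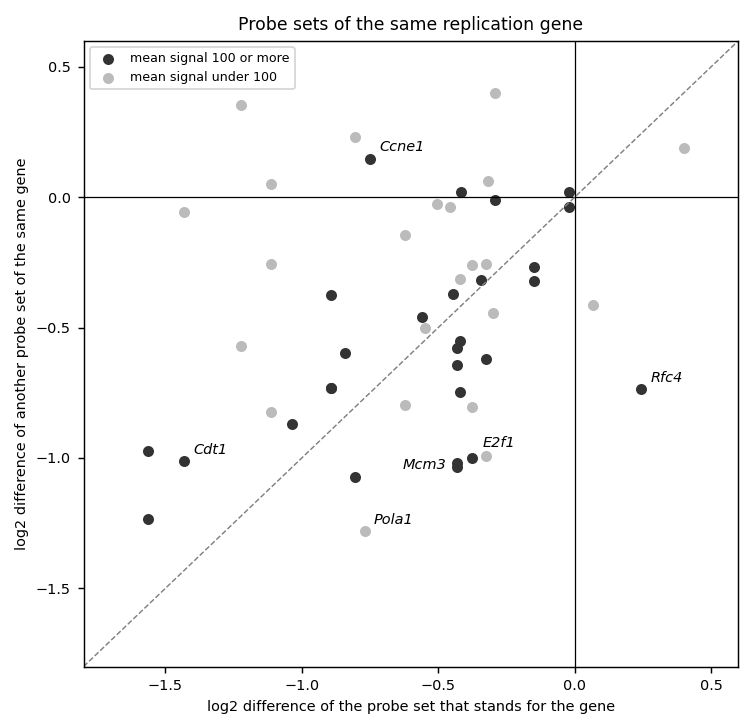
Log2 difference (Bmi1 mutant minus wild type) of each further probe set of a replication gene, on the vertical axis, against that of the probe set that stands for the gene, on the horizontal axis. Dark points have a mean signal of at least 100 and pale points less, and the dashed line marks equal values. Of the 28 dark points 25 lie below 0, and Rfc4 and Ccne1 are among those in quadrants of opposite sign.

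Other genes of the pathway, listed by role, were lower to a smaller degree. Of 68 measured, 47 (69.1%) were below 0 with a median of -0.24, and 0 were called in either direction. At an unadjusted limma p under 0.05, 15 were lower and 0 higher. Of the 32 further replication genes, Donson (-1.08, limma adjusted p = 0.0942), Pole4 and Dbf4 had the smallest p. The polymerase epsilon subunit gene Pole4 differed by -0.95 (limma adjusted p = 0.136). Dbf4, the activator of the Cdc7 kinase, differed by -0.83 (limma adjusted p = 0.142). In 9 genes of replicated chromatin the median was -0.43 and all 9 were below 0, among them the histone mRNA binding protein gene Slbp (-0.52), the histone chaperone gene Nasp (-0.43) and the mismatch repair gene Msh6 (-0.51).

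Nucleotide metabolism outside the members did not lean to a side. Its 10 genes had a median of -0.02, with 5 below 0, led by the salvage kinase gene Dck at -0.77, Dctpp1 at -0.44 and the CTP synthase gene Ctps at 0.73. The 17 further genes of S phase entry had a median of 0.01. Within them the pocket protein gene Rbl1 read 188 to 236 in mutant arrays, against 409 to 595 in wild-type arrays (-1.12, limma adjusted p = 0.0647). E2f8 (-1.11, adjusted p = 0.119), a repressor that E2F factors induce, and cyclin A2, Ccna2 (-1.296, adjusted p = 0.122), also did not overlap.

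Of 8 inhibitors of cyclin-dependent kinases 3 were higher and 0 lower at an unadjusted limma p under 0.05. The 4 below 0 lay between -0.11 and -0.04 with overlapping arrays, and the median of the 8 was 0.04. Cdkn1c was called higher, with 7106, 4886 and 3578 in mutant arrays and 673, 570.03 and 630.3 in wild-type arrays (log2 difference 2.97, limma adjusted p = 0.0100). Cdkn2b (1.54, adjusted p = 0.0880) and Cdkn2a (1.06, adjusted p = 0.158) missed the threshold, and their arrays did not overlap. All 19 mitotic genes measured were below 0, with a median of -1.02, and 0 were called. At an unadjusted limma p under 0.05, 11 were lower and 0 higher, led by Kif11 (-1.19), Cenpe (-1.46) and Bub1 (-1.38).

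Markers of some other cell types moved with the genotype in the same arrays, and those of others overlapped. RNA for the sorted-out surface proteins was present on every array, far above the array medians of 97.4 to 114. Ptprc, which encodes CD45, read 5048 to 6708 in mutant arrays and 6639 to 8507 in wild-type arrays. Pecam1, which encodes CD31, read 2691 to 3185 in mutant and 1907 to 2829 in wild type. All 5 B cell markers measured were called lower in mutant arrays, with a summed signal of 644 to 972 against 4451 to 5585 in wild type. Of 7 T and natural killer cell markers 4 were called lower, with a summed signal of 4429 to 7448 in mutant arrays and 15894 to 24932 in wild-type arrays. No marker was at 0, and the lowest readings were 4.37 for a B cell marker and 11.2 for a T or natural killer cell marker, both in mutant arrays.

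Neutrophil markers ran the other way, with 5 of 5 above 0, 0 called by limma, 5 at an unadjusted p under 0.05, and sums of 19811 to 39945 in mutant and 10247 to 14213 in wild type. Of 9 fibroblast markers 1 was called higher, Col1a1, and their sums were 40844 to 41983 in mutant and 18450 to 33651 in wild type. Of 8 smooth muscle and pericyte markers 0 were called by limma and 7 were higher at an unadjusted p under 0.05, with sums of 11049 to 13273 in mutant and 3117 to 9542 in wild type. The 6 pan-hematopoietic markers had sums of 48316 to 59945 in mutant and 51993 to 66236 in wild type, which overlap. In the same order, sums also overlapped for 6 macrophage markers (33974 to 46286 and 35940 to 42871) and 6 endothelial markers (13261 to 14838 and 11164 to 17664). They overlapped for 6 club and ciliated markers (34040 to 39271 and 31762 to 39675). The sums of 6 alveolar type 1 markers did not overlap (21900 to 23879 and 17731 to 20893). Of those 6 markers only Pdpn kept the genotypes apart by itself (log2 difference 1.51), and Cav1 was below 0 (-0.16). Lung epithelium was present throughout. The sums of 7 alveolar type 2 markers, 79701 to 84726 in mutant and 66495 to 76973 in wild type, did not overlap. All 7 were above 0, by 0.05 to 0.37. Of these, 3 did not overlap by themselves and 0 were called. The part of these cell markers in the replication result was not tested. With the mean level of the fibroblast markers as a covariate, 35 of 43 replication genes were below 0, their median was -0.31, and 0 members were called, with 7 at an unadjusted limma p under 0.05. That mean log2 level was 11.75, 11.66 and 11.75 in mutant replicates 1 to 3 and 11.53, 11.07 and 10.38 in wild-type replicates 1 to 3. It went with genotype, so the fit cannot divide fibroblast level from genotype.

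**Figure D4:**
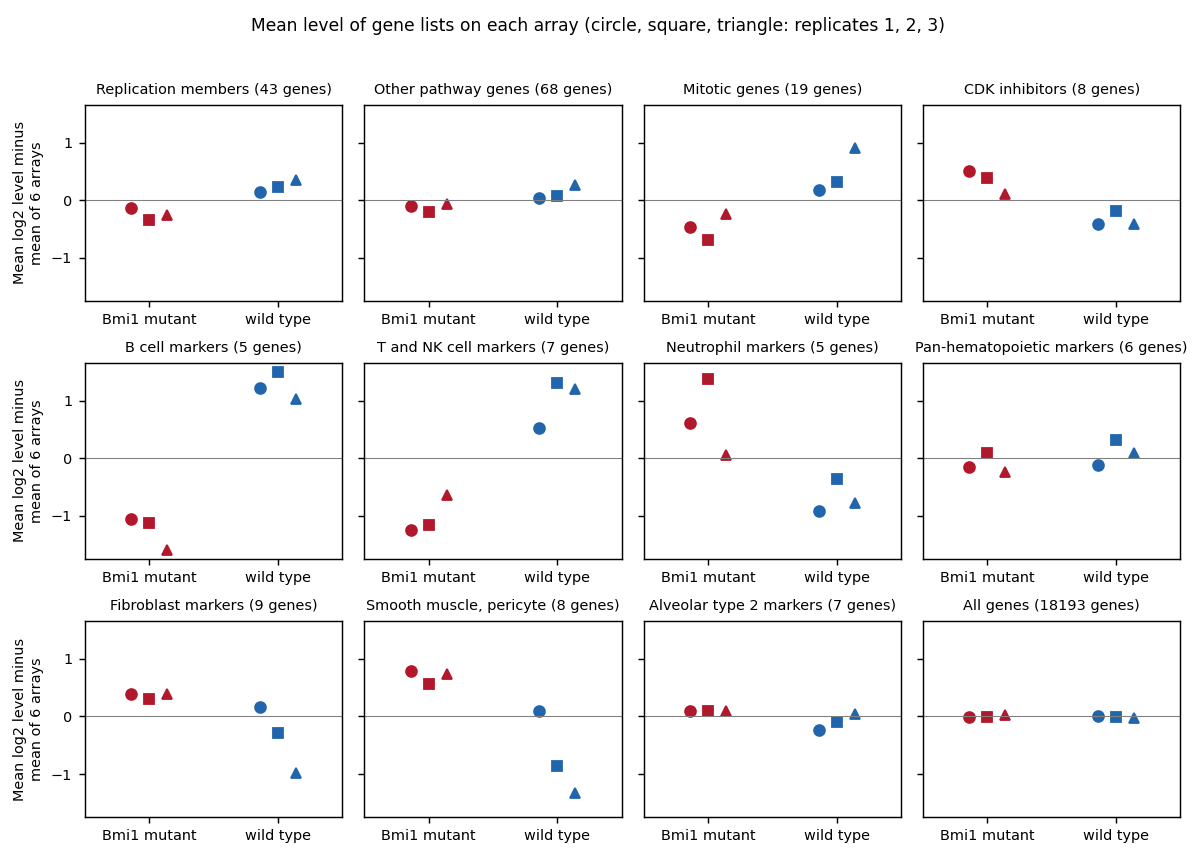
Mean log2 level of each gene list on each array, minus its mean over the 6 arrays, with Bmi1 mutant in red left of wild type in blue and replicates 1, 2 and 3 as circle, square and triangle. Replication members, other pathway genes, mitotic genes and B cell, T and natural killer cell markers are lower on all 3 mutant arrays than on any wild-type array. Neutrophil, smooth muscle, fibroblast and alveolar type 2 markers and the inhibitors of cyclin-dependent kinases are higher. All genes together are level.

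The targeted gene did not check the labels. Bmi1 read 1276, 1498 and 1565 in mutant arrays, against 996, 979.8 and 1164 in wild-type arrays (log2 difference 0.46, limma adjusted p = 0.282). Its probes may lie outside the part that is missing, so each direction rests on the labels. The median signal per array was 97.4 to 114, Gapdh control probes gave 4.85 to 5.94 times as much signal at the 3' end as at the 5' end and those for Actb 0.949 to 1.002 times, and log2 signals correlated at 0.9701 to 0.979 within and 0.957 to 0.973 between genotypes.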

How the data were processed

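The authors deposited a linear intensity per probe set, for which the submitters' processing notes name Affymetrix Expression Console 1.1. How probes were summarized and background removed is not given in the sources used here, and detection calls were not used. Each array's mean signal, with 2% trimmed at each end, is between 500.0023 and 500.0025, so the authors' values were scaled to a common mean, which hides any shift of all genes together. The number of arrays limits the precision.

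Of 45101 probe sets, 64 were controls, and 34945 of the others carried 1 gene symbol in the platform annotation, 932 several and 9160 none. The single-gene probe sets gave 18193 genes. Signals became log2(signal + 16), an offset that understates the change of dim genes, and went into lmFit and eBayes of limma 3.58.1 (R 4.3.3) with genotype alone. On simulated data, with 200 of 18193 genes changed, this fit called 24.6% of genes with a true log2 difference of 1 and 69.0% of those with 2. A gene that missed the threshold may therefore still differ. Noise was drawn for each gene independently there, while lists of genes moved together on the real arrays. The shares are thus only a guide. Standard errors are moderated.

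Members, lists and alternatives were chosen with earlier results of these data known. Per-array values are given for the 12 members with the smallest p, the smallest of each role group and the 3 nearest a p of 1. In each other pathway list up to 3 genes are named. Other values were chosen after they were seen: among them the other probe sets, Pcna, Rfc4, Rbl1 and Orc3 to Orc5. Sequences are RefSeq's, build GRCm38.p6, matched by symbol.

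Alternatives were other offsets, scalings, probe-set rules and priors, a filter, a block, a covariate and leaving out arrays. Figures used matplotlib 3.10.9.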

Additional observations from a re-analysis of the deposited data

How the results depend on the processing

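The median log2 difference of the replication genes stayed below 0 in all 16 alternatives, between -0.54 and -0.31, and reached -0.31 with the fibroblast covariate. Over all genes, 168 were called by limma in the main setting. The count was 38 with an offset of 1, 264 with an offset of 64, 308 of 11491 with a mean signal of at least 100, 383 with an intensity-dependent prior, and 2 to 76 without 1 array, from 2 without wild-type replicate 2 to 76 without mutant replicate 3. It was 0 with the fibroblast covariate and 0 with the replicate block, where 1370 and 2611 genes had an unadjusted p under 0.05, so that Cdkn1c and the B cell markers were not called there either. Same-numbered arrays did not deviate together (correlations 0.0735, 0.0485 and 0.0319), so the numbers were not taken as pairs. Of the members, 2 were called with the intensity-dependent prior, Cdt1 and Mcm7, and 2 probe sets in the fit over all probe sets. Members called numbered 0 with an offset of 1, the fibroblast covariate, the replicate block and without any 1 array, where 10, 7, 13 and 10 to 16 had an unadjusted p under 0.05. The adjusted p of Cdt1 ranged from 0.00463 to 0.440 over the alternatives and was 0.0908 with the replicate block. Of the other pathway genes 1, Rbl1, was called lower with an offset of 64, a mean signal of at least 100 and the intensity-dependent prior. The cause of these changes was not tested. The filter tested fewer genes, and leaving out an array left fewer arrays. The filter gave no value for 5 members, among them Pole, Tyms and Mcm10.

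Turns of sign were confined to 11 members in the settings run. They were Orc2 with median centring (0.016), Ccne1 with the highest linear mean (0.15), Orc6 (-0.16), Rrm1 (0.0493) and Tk1 (0.0285) with the fibroblast covariate, and Cdc45 (-0.17), Prim2 (0.0317) and Rfc4 (-0.25) with the mean of all probe sets. Without 1 array the ranges that crossed 0 were -0.14 to 0.48 for Rfc4, -0.0668 to 0.77 for Orc1, -0.25 to 0.33 for Orc2, -0.12 to 0.24 for Cdc45, -0.33 to 0.35 for Rfc5, -0.64 to 0.12 for Chaf1b and -0.0853 to 0.20 for Orc6. None of these was called in any setting.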
